A study of Homo sapiens with 6 samples.

Results

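A group of 10 genes that lie near loci of inherited risk for age-related macular degeneration (AMD) were followed in ARPE-19 cells with and without POLDIP2: HTRA1, ARMS2, PLEKHA1, SLC16A8, RAD51B, ADAMTS9, B3GLCT, TRPM3, ARHGAP21 and CNN2. They were taken by name from published risk loci, leaving out the complement genes and the TMEM97/VTN locus that holds POLDIP2 itself, and all 10 of the 10 are among the 37902 genes of the deposited table. ARPE-19 is an established human line of retinal pigment epithelial (RPE) cells. WT was the unedited parental line. POLDIP2 KO was derived from it by lentiviral delivery of SpCas9 with an sgRNA against the POLDIP2 coding sequence and by puromycin selection. The methods describe expansion of the transduced cells and no isolation of clones. No line with a control sgRNA is among the samples, so the loss of POLDIP2 cannot be told apart from transduction and selection. Both lines were kept under regular maintenance, and RNA of 3 biological replicates of each was taken at day 3. In RNA from whole cultures, fewer cells that express a gene and less RNA per cell cannot be told apart.

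The values are normalised counts, which are gene counts divided by a size factor for each library, and the number of reads behind them was 31532797 to 45795509 per library. POLDIP2 was lower in each POLDIP2 KO library (1063 to 1248) than in any WT library (3919 to 4827), a log2 fold change of -1.97 at a limma adjusted p of 0.0096. RPE markers were only partly present. MITF, OTX2, KRT8 and KRT18 were expressed in every library, while RPE65 and TTR were at 0 in all 6, TYR reached at most 2.98 normalised counts and DCT at most 3.97. Of the markers of other cell types, the photoreceptor gene ARR3 was at 0 in every library. The endothelial genes CDH5 and VWF reached at most 0.945 and 41.5 normalised counts. CD68 of macrophages ranged from 1680 to 2187, while the leukocyte genes PTPRC and ITGAM had means of 1.91 and 16.3 over the 6 libraries. Endothelial PECAM1 and glial GFAP had means of 4.46 and 4.36. PDGFRB, which marks pericytes, ranged from 1293 to 6572. Of 11 such markers, 4 were tested and 0 passed, with 0 at an unadjusted limma p value under 0.05.

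AMD begins beneath the macula, where lipid and protein deposits build up under the RPE. Later the RPE and the photoreceptors it supports are lost. Inherited risk falls in 2 broad groups. Complement genes make up one of them. The other is mixed and holds genes of extracellular matrix turnover, glycosylation of matrix proteins, metabolite transport, DNA repair, ion flux and the actin cytoskeleton. HTRA1 is a secreted serine protease of the matrix, and with ARMS2 and PLEKHA1 it forms one of the strongest risk loci. A risk locus marks a stretch of the genome, and the gene named for it need not be the one through which it acts.

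Of the 10 genes, 8 were expressed at a mean of at least 10 normalised counts and were tested with limma on log2(normalised count + 1), across all 14684 genes that met this limit. Genes were called where the adjusted p value was under 0.05 and the change larger than 1.5-fold. By limma 0 of the 8 were called, against 25 or 0.17% of all tested genes, with 12 (0.0817%) higher and 13 (0.0885%) lower in POLDIP2 KO. The count over all tested genes was 10 when WT replicate 1 or POLDIP2 KO replicate 1 was left out and 0 when replicate 2 or 3 of either line was left out, and with each of these libraries left out 0 of the 8 were called. An unadjusted limma p value under 0.05 was also reached by 0 of the 8, against 6.48% of all tested genes, 3.0% higher and 3.47% lower. On the recovered reads, 0 of the 8 were called by the edgeR quasi-likelihood test and by DESeq2, which called 0.116% and 1.69% of all tested genes. The log2 fold changes ran from -0.17 to 0.38 with a median of -0.01, and 4 genes were higher and 4 lower in POLDIP2 KO, while the median of all tested genes was 0.00. HTRA1 and ADAMTS9 lay at the upper end, ahead of RAD51B. The other 5 lay within 0.17 of no change. In a design of 3 libraries against 3, the exact two-sided permutation test cannot give a p value under 0.1.

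**Figure D1:**
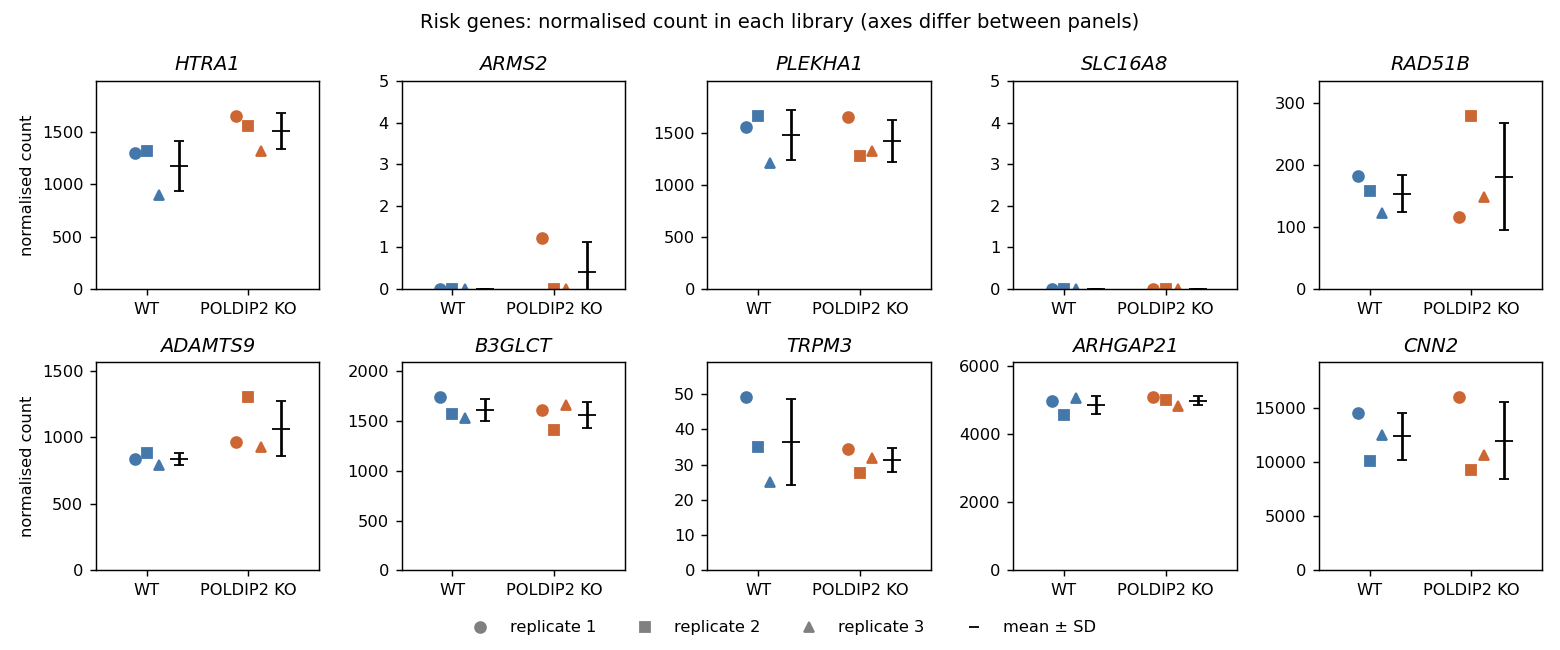
Normalised count (vertical axis, linear from 0, with its own scale in each panel) of the 10 genes in the 3 WT and 3 POLDIP2 KO libraries; circles, squares and triangles are replicates 1, 2 and 3, and bars are mean ± SD (n = 3). The lines overlap in every expressed gene except ADAMTS9, and ARMS2 and SLC16A8 stay at or next to 0.

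The locus on the long arm of chromosome 10 holds an expressed gene on either side of a nearly silent one. In GENCODE release 44 on GRCh38, PLEKHA1 lies at chr10:122374696-122432354, ARMS2 at chr10:122454653-122457352 and HTRA1 at chr10:122458551-122514907, all on the plus strand. A gap of 22.3 kb parts PLEKHA1 from ARMS2, and 1198 bases part ARMS2 from HTRA1. The windows from 250 bases before to 50 bases after the annotated start of ARMS2 (chr10:122454403-122454702, plus strand) and HTRA1 (chr10:122461303-122461602, plus strand) are printed because these neighbours differ so much in RNA, with every CG dinucleotide in capitals (RefSeq, GRCh38.p14). Starts are those of RefSeq, and for HTRA1 and RAD51B the GENCODE model begins farther upstream.
ARMS2: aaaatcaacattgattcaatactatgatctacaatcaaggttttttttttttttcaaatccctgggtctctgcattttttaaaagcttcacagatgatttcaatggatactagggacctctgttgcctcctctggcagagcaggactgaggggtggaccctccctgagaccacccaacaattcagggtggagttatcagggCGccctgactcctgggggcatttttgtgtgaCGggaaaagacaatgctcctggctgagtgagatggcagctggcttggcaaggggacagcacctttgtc
HTRA1: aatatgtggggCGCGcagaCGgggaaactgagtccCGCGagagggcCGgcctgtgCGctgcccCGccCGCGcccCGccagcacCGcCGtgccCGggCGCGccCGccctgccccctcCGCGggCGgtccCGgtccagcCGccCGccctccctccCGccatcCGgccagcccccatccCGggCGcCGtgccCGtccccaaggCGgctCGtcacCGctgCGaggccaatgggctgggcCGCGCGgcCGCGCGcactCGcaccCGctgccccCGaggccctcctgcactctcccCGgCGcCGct
The ARMS2 window holds 2 CG dinucleotides at 47.7% G and C, and 11.0% of the 35114 RefSeq windows of this length hold fewer. The HTRA1 window holds 45 at 80.7% G and C, more than 96.5% of windows. The PLEKHA1 window also holds 45. Of the 10 genes, 8 had a window in the RefSeq table, and ADAMTS9 and B3GLCT did not.

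HTRA1 (ENSG00000166033) cleaves extracellular matrix proteins and binds ligands of the TGF-beta family. Its normalised counts were 1299, 1317 and 898 across WT replicates 1, 2 and 3, against 1655, 1552 and 1316 across the same replicates of POLDIP2 KO. WT replicate 3 was the lowest of the 6 libraries, and the lines overlapped by a narrow margin, since POLDIP2 KO replicate 3 and WT replicate 2 were almost level. The mean was 1171 ± 237 for WT, against 1507 ± 174 for POLDIP2 KO (± SD of 3 libraries), a difference of 28.7%. The log2 fold change was 0.38 with a standard error of 0.18 and a 95% confidence interval from -0.05 to 0.81 (limma adjusted p = 0.86, exact two-sided permutation p = 0.2). By replicate number, POLDIP2 KO was 1.27-fold, 1.18-fold and 1.47-fold of WT in pairs 1, 2 and 3. HTRA1 was therefore higher in all 3 pairs. Of the 8 tested genes 2 were, HTRA1 and ADAMTS9, and 0 were lower in all 3, against 17.0% and 15.7% of all tested genes. With a block for the replicate number, the interval of the log2 fold change was 0.11 to 0.65 and the unadjusted limma p value 0.015. The adjusted p value of that fit was 0.284, so HTRA1 did not pass there either. Leaving out single libraries moved its log2 fold change between 0.20 and 0.47, with the lowest value without WT replicate 3. A lncRNA on the opposite strand shares 159 bases, or 7.07%, of the exon bases of HTRA1. The library kit keeps the strand, but whether the counting used it is not given in the sources used here.

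ARMS2 (ENSG00000254636), a small primate gene of uncertain function, had 1 read in POLDIP2 KO replicate 1 and 0 reads in each of the other 5 libraries. With 3 reads taken as the limit that a count of 0 allows, levels under 2.44 to 3.69 normalised counts, depending on the library, could not be told from 0. Both lines lay under this limit, so no fold change is given.

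PLEKHA1 (ENSG00000107679) is an adaptor whose pleckstrin homology domain binds phosphoinositides at the plasma membrane. It had 1559, 1664 and 1209 normalised counts across WT replicates 1, 2 and 3, against 1648, 1278 and 1328 in the POLDIP2 KO line. The libraries of the lines were interleaved. PLEKHA1 had a log2 fold change of -0.05, and its 95% confidence interval from -0.45 to 0.34 lay within a 1.5-fold change in either direction (limma adjusted p = 0.9998). By replicate number, the ratio of POLDIP2 KO to WT was 1.06, 0.77 and 1.10, so it was lower in pair 2 only. HTRA1 and PLEKHA1 were also set against each other within each library, a comparison chosen after their values were seen. The ratio of HTRA1 to PLEKHA1 was 0.83, 0.79 and 0.74 across WT replicates 1, 2 and 3, against 1.00, 1.21 and 0.99 in the POLDIP2 KO line. Every POLDIP2 KO library lay above every WT library. Since the ratio was chosen for its values, no test is given.

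Relatives and partners of these genes were followed as well. HTRA2, the mitochondrial member of the family, had a log2 fold change of -0.02 with an interval from -0.29 to 0.25, and HTRA3 was at 0 in 5 of the 6 libraries. Neither of the 2 tested genes of the HTRA family nor any of the 6 tested genes of phosphoinositide signalling passed by limma, with 0 at an unadjusted p value under 0.05 in both lists. PLEKHA2, which codes for the closest relative of PLEKHA1, had a log2 fold change of 0.04 with a wide interval from -0.67 to 0.75. Across the 6 libraries, the genes whose log2 values followed HTRA1 most closely were PMP22 (Pearson r = 0.992), PACRGL (r = 0.992) and SFT2D3 (r = 0.983). PMP22, which codes for a membrane protein of myelin and epithelia, had 188, 202 and 72.0 normalised counts across WT replicates 1, 2 and 3, against 443, 309 and 226 in the POLDIP2 KO line, with the lowest library of each line at replicate 3, as for HTRA1. These genes were picked for the highest correlations in a search of all 14684 tested genes. Their likeness to HTRA1, including the low replicate 3 of PMP22, is therefore no separate result. The correlations describe 6 libraries of 2 lines.

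SLC16A8 (ENSG00000100156), on the minus strand at chr22:38078134-38084184, codes for MCT3, the transporter that passes lactate from the RPE to the choroid. Mature RPE in the eye is known for this transporter. SLC16A8 had 0 reads in all 6 libraries, like the RPE markers RPE65 and TTR. Reads were found for other genes of lactate transport. SLC16A3, the MCT4 transporter of glycolytic cells, had 19794 ± 4222 normalised counts for WT, against 23175 ± 7222 for POLDIP2 KO (mean ± SD of 3 libraries). SLC16A1 was low and uneven, at 467, 188 and 27.1 across WT replicates 1, 2 and 3, against 349, 301 and 126 in the POLDIP2 KO line. BSG, the chaperone that brings these transporters to the membrane, had 14781, 15857 and 16283 in WT, against 18280, 17976 and 18537 in the POLDIP2 KO line. All 3 POLDIP2 KO libraries lay above all WT libraries for BSG, yet they differed little, by a log2 fold change of 0.22 with an interval from -0.00 to 0.45 (limma adjusted p = 0.78). Of the 7 genes listed for lactate transport, 6 were tested. All 6 were higher in POLDIP2 KO on average, as were 7334 of all 14684 tested genes. The median log2 fold change of the 6 was 0.21. EMB and LDHB lay close to no change, at 0.06 and 0.05, and the interval of SLC16A1 ran from -1.50 to 3.13. By limma 0 passed in either direction, with 0 at an unadjusted p value under 0.05. In the blocked limma fit 2 of the 6 had an unadjusted p value under 0.05, against 11.1% of all tested genes, and 0 passed after adjustment.

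The SLC16A8 window (chr22:38084135-38084434, minus strand) and the CNN2 window (chr19:1026358-1026657, plus strand) are shown next, since they belong to the gene without reads and to the most abundant of the 10, again with CG in capitals.
SLC16A8: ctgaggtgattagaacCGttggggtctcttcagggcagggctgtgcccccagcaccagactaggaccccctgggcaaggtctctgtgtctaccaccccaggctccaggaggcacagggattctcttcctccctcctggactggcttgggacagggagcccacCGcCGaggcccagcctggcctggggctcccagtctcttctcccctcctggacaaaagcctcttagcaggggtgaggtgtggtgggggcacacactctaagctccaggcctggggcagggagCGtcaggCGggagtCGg
CNN2: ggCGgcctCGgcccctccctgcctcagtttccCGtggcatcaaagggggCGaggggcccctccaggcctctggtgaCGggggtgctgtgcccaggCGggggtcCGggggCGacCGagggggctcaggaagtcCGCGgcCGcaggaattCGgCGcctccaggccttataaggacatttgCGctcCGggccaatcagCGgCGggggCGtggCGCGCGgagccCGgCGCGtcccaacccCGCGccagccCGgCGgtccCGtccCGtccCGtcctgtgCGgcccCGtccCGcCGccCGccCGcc
The SLC16A8 window holds 6 CG dinucleotides and the CNN2 window 38, and 33.7% and 90.1% of all RefSeq windows hold fewer. The RAD51B windows hold 2 each, as the ARMS2 window does. They begin at chr14:67823291 and chr14:67823342, downstream of the GENCODE start of RAD51B at chr14:67819779. They therefore do not show the CG content at that start.

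Among the genes of the extracellular matrix, ADAMTS9 (ENSG00000163638, minus strand, chr3:64515654-64688000) codes for a secreted metalloprotease that cuts the proteoglycans versican and aggrecan. Its normalised counts were 839, 881 and 790 across WT replicates 1, 2 and 3, against 966, 1301 and 925 in the POLDIP2 KO line. It was the one gene of the 8 whose lines did not overlap, a state that 5.46% of all tested genes reached above WT, 5.44% below it and 10.9% in either direction. POLDIP2 KO replicate 2 stood well above the other POLDIP2 KO libraries. The mean was 837 ± 45.3 for WT, against 1064 ± 206 for POLDIP2 KO (± SD of 3 libraries), and the log2 fold change of 0.33 had a standard error of 0.16 and an interval from -0.04 to 0.70 (limma adjusted p = 0.85, exact two-sided permutation p = 0.1). Within replicate numbers, POLDIP2 KO was 1.15-fold, 1.48-fold and 1.17-fold of WT. With the block, the unadjusted limma p value was 0.0385 and the adjusted p value 0.41. Without POLDIP2 KO replicate 2, the log2 fold change was 0.18. An antisense gene, ADAMTS9-AS1, shares 1.63% of its exon bases. HTRA1 and ADAMTS9 were thus 2 of the 8 genes at an unadjusted p value under 0.05 in the blocked limma fit, where 11.1% of all tested genes lay, and neither passed after adjustment.

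**Figure D2:**
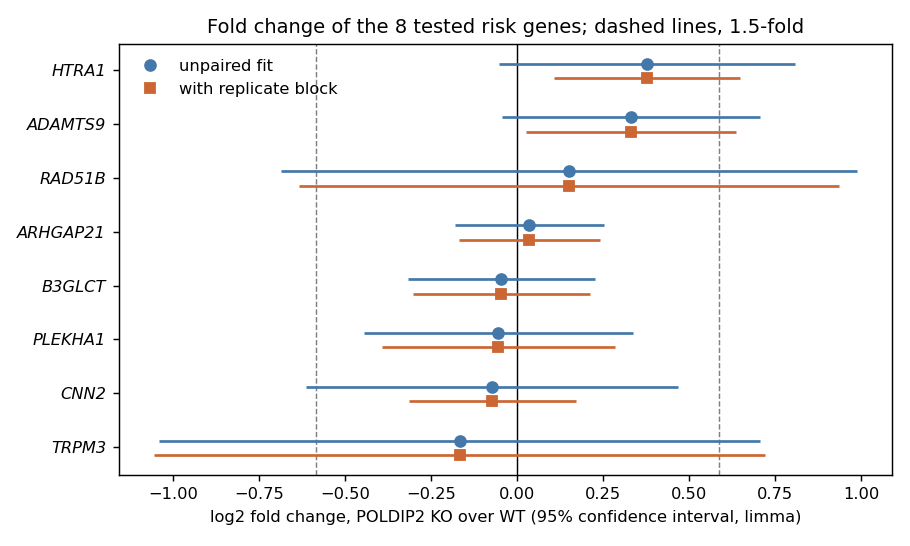
Log2 fold change of POLDIP2 KO over WT (horizontal axis) of the 8 tested genes with 95% confidence intervals from limma, without (circles) and with (squares) the replicate number as a block; dashed lines mark a 1.5-fold change. HTRA1 and ADAMTS9 are at the top with 0.38 and 0.33, and the intervals of ARHGAP21, B3GLCT and PLEKHA1 stay between the dashed lines.

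Several relatives of ADAMTS9 lay farther from no change than ADAMTS9 itself. Of its 24 listed relatives, 23 are in the table and 17 were tested. None passed the limma thresholds. At an unadjusted p value under 0.05, 1 was higher and 3 were lower, together 4 of 17 against 6.48% of all tested genes. In the blocked limma fit 8 of the 17 had an unadjusted p value under 0.05, against 11.1% of all tested genes, and 0 passed after adjustment. ADAMTS15, at a log2 fold change of 0.71, and ADAMTS5, at -0.97, had adjusted p values of 0.0992 and 0.122 in that fit, and the lines overlapped in both. ADAMTS20 had the smallest p value, with 32.1, 20.1 and 31.3 normalised counts across WT replicates 1, 2 and 3, against 6.15, 5.70 and 1.99 in the POLDIP2 KO line, and a log2 fold change of -2.43 (interval -3.78 to -1.09, limma adjusted p = 0.267). This gene met the expression limit of 10 through its WT libraries, and its POLDIP2 KO values rest on few reads. In POLDIP2 KO replicate 3 it lay under the limit of 3 reads, 2.98 normalised counts in that library. ADAMTS6 had 1096, 1196 and 851 in WT, against 518, 685 and 299 in the POLDIP2 KO line, with a log2 fold change of -1.13 (interval -1.86 to -0.40, limma adjusted p = 0.383). DESeq2 on the recovered reads gave ADAMTS6 an adjusted p value of 0.0432, the single call of that test among these relatives. ADAMTSL3, a secreted relative without a protease domain, lay on the other side, with 1457, 1505 and 1650 in WT, against 1917, 1848 and 2250 in the POLDIP2 KO line, and a log2 fold change of 0.38 with an interval from 0.10 to 0.66 (limma adjusted p = 0.513). None of ADAMTS20, ADAMTS6 and ADAMTSL3 overlapped between the lines. These 3 were named for the smallest p values of the list, so the lack of overlap is no separate support. Of the 17 tested relatives, 2 lay above WT without overlap and 3 below it, against 5.46% and 5.44% of all tested genes. ADAMTS1, a protease of the same substrates as ADAMTS9, had 2976, 3302 and 3162 in WT, against 1453, 2040 and 507 in the POLDIP2 KO line, again without overlap, with a log2 fold change of -1.46 (interval -2.56 to -0.35, limma adjusted p = 0.531). ADAMTS9 and ADAMTS1 thus lay on opposite sides of no change, and the difference between them was not tested. ADAMTS16, named after its values were seen, was below the expression limit, with 1 read in each WT library and 3, 24 and 13 reads in POLDIP2 KO replicates 1, 2 and 3.

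B3GLCT (ENSG00000187676, plus strand, chr13:31199975-31332276) adds glucose to the O-fucose that POFUT2 places on thrombospondin repeats, the modules that ADAMTS proteases carry, and the modification helps these proteins to fold and leave the cell. It had 1741, 1569 and 1530 normalised counts across WT replicates 1, 2 and 3, against 1614, 1415 and 1663 in the POLDIP2 KO line. The lines overlapped, and the spread within each was small. For B3GLCT this gave a log2 fold change of -0.05 with an interval from -0.32 to 0.23 (limma adjusted p = 0.9998). POFUT2, the enzyme of the preceding step, had 2298, 1877 and 2016 in WT, against 3155, 2181 and 2487 in the POLDIP2 KO line, higher in all 3 pairs though the lines overlapped, and a fitted log2 change of 0.33 with an interval from -0.05 to 0.70 (limma adjusted p = 0.874). THBS1, a substrate and one of the most abundant genes of these cells, swung widely within each line, with a mean of 101519 ± 51580 for WT, against 133581 ± 58471 for POLDIP2 KO (± SD of 3 libraries). Of the 7 genes in this list 5 were tested and 0 passed by limma, with 0 at an unadjusted p value under 0.05.

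RAD51B (ENSG00000182185, plus strand, chr14:67819779-68730218) codes for a protein of the BCDX2 complex, which acts in the repair of broken DNA by homologous recombination. Its normalised counts were 181, 158 and 122 across WT replicates 1, 2 and 3, against 116, 279 and 148 in the POLDIP2 KO line. POLDIP2 KO replicates 1 and 2 were the lowest and the highest of all 6 libraries, a 2.41-fold range within the line. On average the log2 fold change was 0.15 with an interval from -0.69 to 0.99, which covers both no change and a change of over 1.5-fold in either direction (limma adjusted p = 0.9998). The result depended on POLDIP2 KO replicate 2, without which the log2 fold change was -0.21. Within pairs, the ratio of POLDIP2 KO to WT was 0.64, 1.77 and 1.21. A lncRNA on the opposite strand shares 7.49% of the exon bases of RAD51B. Among other genes of this repair, RAD51C had a log2 fold change of -0.13, RAD51D of -0.02, XRCC2 of -0.08, XRCC3 of -0.01 and RAD52 of -0.29, and those of the whole list ran from -0.58 to 0.07. All 10 genes listed for homologous recombination were tested, 0 passed in either direction, 0 had an unadjusted limma p value under 0.05, and for 6 the interval stayed within a 1.5-fold change.

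TRPM3 (ENSG00000083067, minus strand, chr9:70529060-71446904) is a calcium-permeable channel of the plasma membrane, and its introns hold the gene of the microRNA MIR204 (chr9:70809975-70810084), which is abundant in RPE. The microRNA itself was not measured in these libraries of polyadenylated RNA. TRPM3 was the lowest of the 8 tested genes, with 49.1, 35.1 and 25.1 normalised counts across WT replicates 1, 2 and 3, against 34.4, 27.7 and 31.8 in the POLDIP2 KO line. These values rest on 24 to 52 reads per library. All POLDIP2 KO libraries lay inside the range of the WT libraries, and the log2 fold change of -0.17 had an interval from -1.04 to 0.71 (limma adjusted p = 0.9998). This interval includes a 1.5-fold change in either direction. TRPM7, a channel joined to a kinase, had a log2 fold change of 0.07 with an interval from -0.24 to 0.37. TRPM2, a channel opened by ADP-ribose under oxidative stress, had the smallest p value among the relatives, with 118, 49.2 and 68.9 in WT, against 346, 192 and 111 in the POLDIP2 KO line. It was higher in all 3 pairs but the lines overlapped, and the log2 fold change was 1.39 (interval 0.24 to 2.54, limma adjusted p = 0.615). Of the family 5 genes were tested and 0 passed by limma, with TRPM2 alone at an unadjusted p value under 0.05. TRPM1 and TRPM5 had 0 reads in every library.

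ARHGAP21 (ENSG00000107863, minus strand, chr10:24583609-24723887) switches off small GTPases such as CDC42 and is brought to the Golgi by ARF1. Of the 8 genes it had the narrowest interval, with 4969, 4559 and 5049 normalised counts across WT replicates 1, 2 and 3, against 5086, 5013 and 4834 in the POLDIP2 KO line. The libraries of the lines were interleaved. ARHGAP21 had a log2 fold change of 0.04, and the 95% confidence interval from -0.18 to 0.25 corresponds to a fold change between 0.88 and 1.19 (limma adjusted p = 0.9998). With PLEKHA1 and B3GLCT, it is one of 3 among the 8 genes whose interval stayed within 1.5-fold in both directions, as it did for 47.5% of all tested genes. The close relative ARHGAP23 was far less even, at 4200 ± 1619 for WT, against 4515 ± 2401 for POLDIP2 KO (mean ± SD of 3 libraries). All 7 partners were tested and 0 passed by limma, with 0 at an unadjusted p value under 0.05.

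CNN2 (ENSG00000064666, plus strand, chr19:1026586-1039068) codes for calponin 2, which binds actin filaments in cells other than muscle and steadies them under tension. Its normalised counts were 14535, 10123 and 12558 across WT replicates 1, 2 and 3, against 16039, 9319 and 10644 in the POLDIP2 KO line. Replicate 1 was the highest library of each line, and the spread within a line was far larger than the difference between the means of 12405 ± 2210 and 12001 ± 3560 (± SD of 3 libraries). The log2 fold change was -0.07 with an interval from -0.61 to 0.47 (limma adjusted p = 0.9998). With blocks for the replicate number the interval narrowed to -0.32 to 0.17, which lies within a 1.5-fold change. The ratio of POLDIP2 KO to WT was 1.10, 0.92 and 0.85 in pairs 1, 2 and 3. A gene model on the opposite strand shares 9.29% of the exon bases of CNN2.

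**Figure D3:**
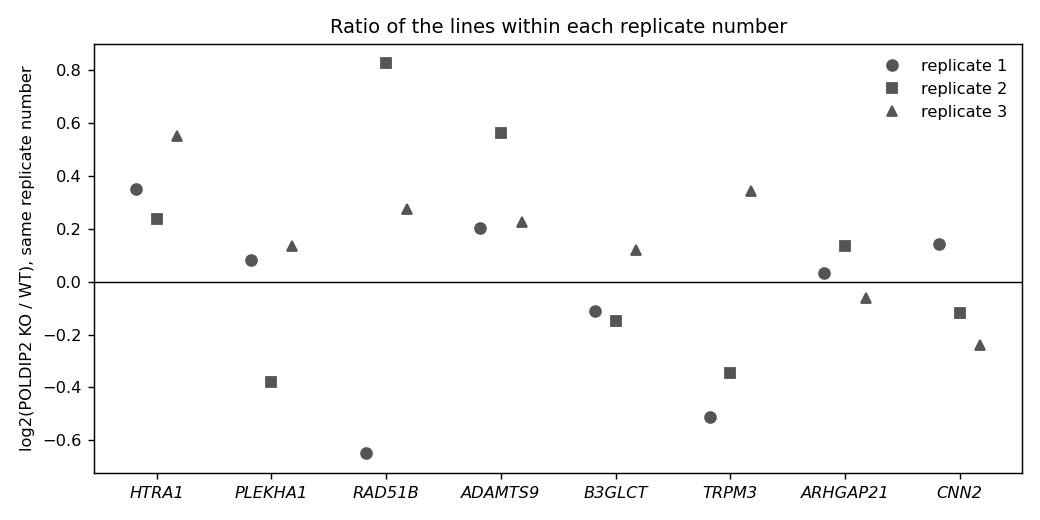
Log2 ratio of POLDIP2 KO to WT (vertical axis) within each replicate number (circle, square and triangle for 1, 2 and 3) for the 8 tested genes. HTRA1 and ADAMTS9 lie above 0 in all 3 pairs, and the other 6 have pairs on both sides, widest in RAD51B.

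The replicate number, not the line, was the larger divide for CNN2. Replicate 1 held 1.28 times the mean of replicates 2 and 3 in WT and 1.61 times in POLDIP2 KO. In TRPM3, too, replicate 1 was highest in both lines. Its POLDIP2 KO replicates 1, 2 and 3 held 28, 34 and 32 reads, too few to settle their order. Replicate 1 was the highest library of both lines in 2 of the 8 tested genes, against 22.0% of all tested genes, and the lowest in 0 of 8, against 20.5%. It was the highest in both lines in 6 of 8 genes coding for other calponins, transgelins, actin and its binding proteins. Other lists shared this, with 6 of 7 ARHGAP21 partners, 4 of 5 thrombospondin repeat genes and 9 of 17 ADAMTS relatives. Among homologous recombination genes it held for 1 of 10, and among all families and partners for 32 of 66. In TAGLN, which codes for a calponin relative and marks contractile cells, replicate 1 had 35184 normalised counts against 2228 and 1425 in WT, and 51738 against 4102 and 5461 in POLDIP2 KO. CALD1, TPM1, TPM2, ACTA2 and TAGLN2 were highest in replicate 1 as well. The relatives CNN1 and CNN3 were not. With replicate 1 of both lines left out, a choice made after seeing the data, the log2 fold change of CNN2 was -0.18 and 0 of the 8 risk genes were called. All 8 calponin and actin genes were tested, and 0 passed by limma between the lines, with 0 at an unadjusted p value under 0.05. On average 6 were higher and 2 lower in POLDIP2 KO. TAGLN had a log2 fold change of 1.12 with an interval from -2.19 to 4.43 and was higher in all 3 pairs, with a blocked unadjusted limma p value of 0.0071 and an adjusted p value of 0.205. The 2 lower genes were CNN3 at -0.18 and CNN1 at -0.54, with intervals that include 0.

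The CNN2 window printed above holds CCTTATAAGG, whose letters read the same on both strands. This sequence fits the strict form of the CArG box, in which only A and T stand between CC and GG over 6 bases, the element bound by serum response factor at genes of the contractile cytoskeleton. CCTTATAAGG occurs in 14 of the 35114 RefSeq windows, or 0.0399%, and a strict CArG box in 1.29%. The sequence counted was taken from the CNN2 window itself, so its rarity is no test. No strict CArG box lies in the windows of CALD1, TPM1, TPM2, ACTA2, TAGLN2, CNN1 or CNN3. TAGLN was not among the windows compared. Forms that differ from the strict one were not searched. Of other motifs, GGGCGG on either strand occurs 5 times in the HTRA1 window, 2 times in that of CNN2 and in 45.0% of all windows. It occurs 4, 3, 0 and 1 times in ARHGAP21 windows 1 to 4, and not in those of ARMS2, SLC16A8, PLEKHA1, RAD51B and TRPM3. CCAAT on either strand occurs once in the windows of HTRA1 and CNN2, once in TRPM3 window 1 and in 34.6% of all windows. These matches are letters in a window, and binding was not measured.

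**Figure D4:**
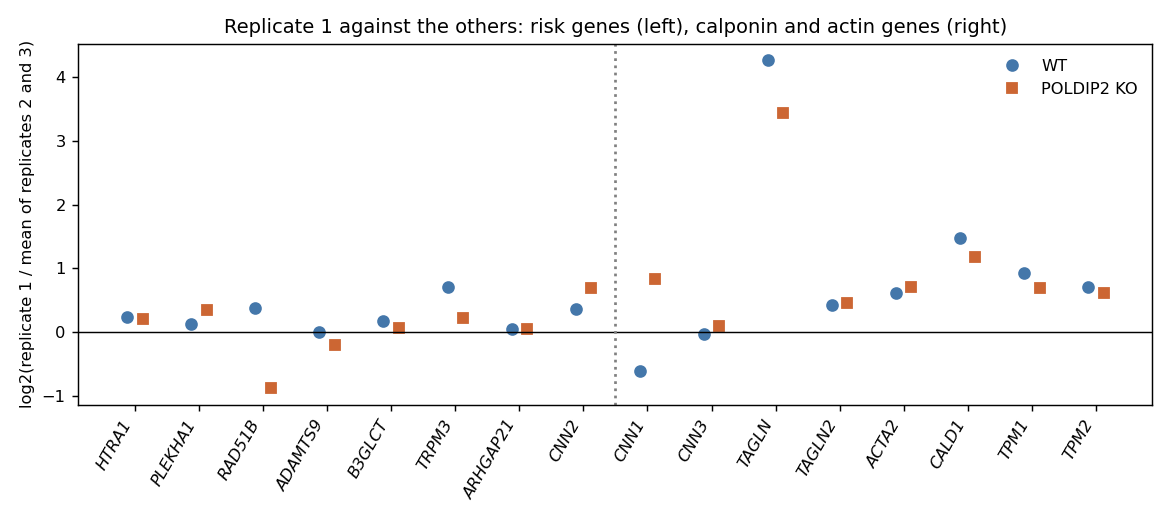
Log2 ratio of replicate 1 to the mean of replicates 2 and 3 (vertical axis) in WT (circles) and POLDIP2 KO (squares), for the 8 tested risk genes left of the dotted line and 8 calponin and actin genes right of it. TAGLN is highest, and CNN2 lies above 0 in both lines, at 1.28-fold and 1.61-fold.

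Levels were also compared between genes as normalised counts per kilobase of the canonical transcript in GENCODE release 44, which leaves other isoforms out of account. CNN2 led with 5773 ± 1028 in WT (mean ± SD of 3 libraries) and 5584 ± 1657 in POLDIP2 KO. ARHGAP21 followed at 658 ± 35.6 and 674 ± 17.6, then HTRA1 at 560 ± 113 and 721 ± 83.1, PLEKHA1 at 395 ± 63.6 and 379 ± 53.8 and B3GLCT at 383 ± 26.7 and 371 ± 31.2. ADAMTS9 (110 ± 5.94 and 140 ± 27.0) and RAD51B (98.6 ± 19.1 and 116 ± 55.6) formed a lower pair, and TRPM3 had 2.96 ± 0.98 and 2.54 ± 0.28. No library of CNN2 overlapped with one of ARHGAP21, no library of B3GLCT with one of ADAMTS9, and no library of RAD51B with one of TRPM3. The neighbours ARHGAP21 and HTRA1, HTRA1 and PLEKHA1, PLEKHA1 and B3GLCT, and ADAMTS9 and RAD51B overlapped in their ranges over the 6 libraries. Within libraries, HTRA1 lay above PLEKHA1 in all 6, PLEKHA1 above B3GLCT in 4, ADAMTS9 above RAD51B in 4 and ARHGAP21 above HTRA1 in 3. On this scale HTRA1 lay below ARHGAP21 on average in WT and above it in POLDIP2 KO.

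For context, 27 further genes named at AMD risk loci outside complement and the TMEM97/VTN locus were followed, of which 26 are in the table and 18 were tested. None of the 18 passed the limma thresholds, and the median log2 fold change was -0.04. At an unadjusted limma p value under 0.05, 1 was higher and 1 lower, against 3.0% and 3.47% of all tested genes. Without overlap of the lines, 1 lay above WT and 1 below it, against 5.46% and 5.44% of all tested genes. COL8A1, a collagen of the basement membrane beneath the RPE, had 15675, 18962 and 18256 normalised counts across WT replicates 1, 2 and 3, against 14686, 14588 and 13763 in the POLDIP2 KO line, without overlap. The fitted log2 fold change was -0.29 (interval -0.56 to -0.03, limma adjusted p = 0.69). SPEF2, a gene of sperm and cilia, had 119, 85.3 and 119 in WT, against 199, 134 and 194 in the POLDIP2 KO line, and a log2 fold change of 0.70 with an interval from 0.09 to 1.30 (limma adjusted p = 0.671). ACAD10, an enzyme of the acyl-CoA dehydrogenase family, had the next smallest p value, at a log2 fold change of 0.26 with an interval from -0.15 to 0.67 (limma adjusted p = 0.9998). Of the families and partners of the risk genes as a whole, 66 genes were tested and 0 passed by limma, with 2 higher and 3 lower at an unadjusted p value under 0.05 (6.48% of all tested genes) and a median log2 fold change of 0.05. In the blocked limma fit 16 of the 66 had an unadjusted p value under 0.05, against 11.1% of all tested genes, and 0 passed after adjustment.

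**Figure D5:**
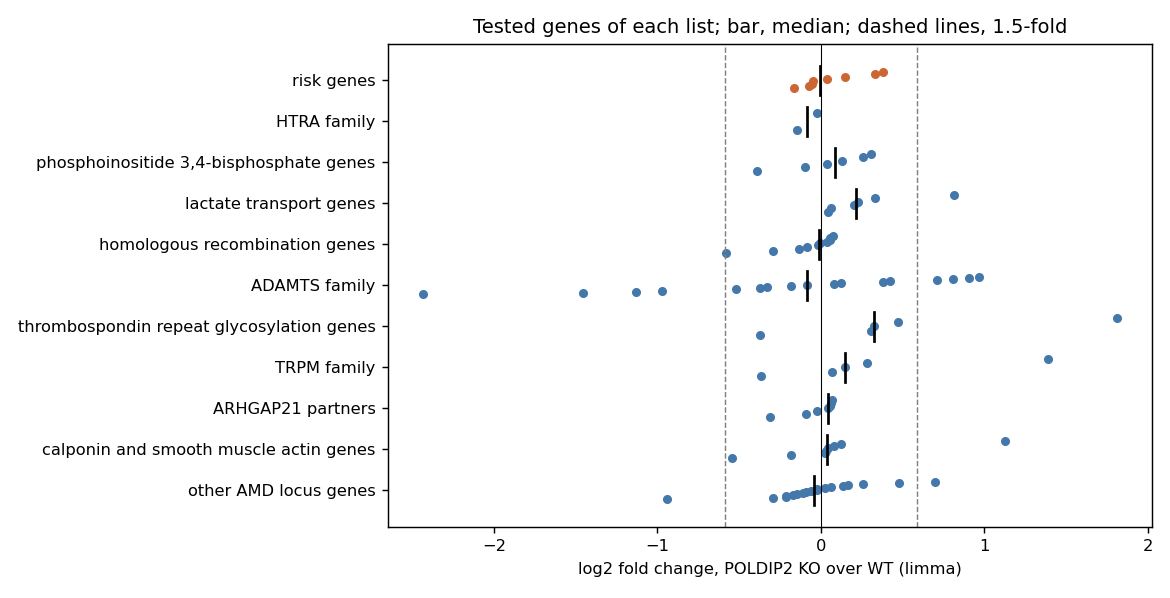
Log2 fold change of POLDIP2 KO over WT by limma (horizontal axis) for the tested genes of each list, one point per gene, with the median as a bar and 1.5-fold as dashed lines. The 8 risk genes lie between -0.17 and 0.38, and the widest list is the ADAMTS family, from -2.43 to 0.96. The lowest point of that family is ADAMTS20, which has few reads in POLDIP2 KO.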

How the data were processed

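Stranded libraries of polyadenylated RNA from 3 WT and 3 POLDIP2 KO cultures were sequenced as single-end reads of 100 bp. The signal in the deposited table was made by the authors with Salmon 1.8, tximport and DESeq2 1.34.0 on GRCh38 as gene counts divided by a size factor per library; the annotation release is not given in the sources used here. Every column was used. Each value was divided by the smallest value above 0 of its library, the step of 1 read, and 100% came out whole within 0.001; the largest distance was 0.00034. This says little for replicate 2 of WT and replicate 3 of POLDIP2 KO, whose step is nearly 1.

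Genes with a mean of at least 10 were compared on log2(normalised count + 1) by limma 3.58.1 (R 4.3.3; lmFit, then eBayes with trend, prior df 3.02). P values of all 14684 genes were adjusted by Benjamini-Hochberg, and calls needed an adjusted p under 0.05 with a change over 1.5-fold. Adding 1 understates the change of low genes. How the replicate cultures were separated is not given in the sources used here, so p values measure the spread between these libraries. Floors cover counting error only. Values of same-numbered libraries, centred within each line, correlated at 0.315, 0.137 and 0.129 across the tested genes. Of the other combinations, WT replicate 3 with POLDIP2 KO replicate 2 reached 0.147 and the rest lay below 0. Since 0.147 exceeds the values of pairs 2 and 3, this check cannot decide whether replicates 2 and 3 belong together by number. Blocked fits and ratios within pairs 2 and 3 therefore rest on the numbering in the titles. All 3 same-numbered values lay above the limit of 0.1. By that limit the replicate number given in the titles was used as a block in an alternative.

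Alternatives were a pseudocount of 0.5 or 5, the filter removed or raised to 50, quantile normalisation or recentring of libraries, eBayes robust or without trend, the block, each library left out, and edgeR 4.0.16 and DESeq2 1.42.0 on recovered reads. Both lines without replicate 1 was added after seeing the data. On simulated data of 14523 genes for POLDIP2 KO against WT, limma recovered 32.6% of 2-fold and 79.8% of 4-fold changes, with 10.1% false calls. DESeq2 had 30.1% false calls. In that simulation 192 genes were changed, by 2-fold or 4-fold only, and same-numbered libraries shared no replicate effect. Its rates therefore need not hold for the real libraries or for smaller changes.

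Genes named are the 10 risk genes, set relatives and partners, and the 3 smallest p values of a list where such a result is described. The risk genes and all lists were chosen with earlier results of these data known. Of the listed genes, 4 are not in the table and are not analysed here, and single values of some others are not reported here. Tables and figures used Python 3.11.15, pandas 2.3.3 and matplotlib 3.10.9.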

Additional observations from a re-analysis of the deposited data

How the results depend on the processing

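The count of risk genes passing the thresholds was 0 under every alternative run, and the same held for the further genes at risk loci. Among families and partners, DESeq2 on the recovered reads called 1, ADAMTS6, against 0 by limma, and no other alternative called any. Over all genes limma called 25, and 30 with the replicate block, which changed no call among the risk genes. The count was 17 with edgeR, 16 with a mean of at least 50, 248 with DESeq2, 5 with edgeR and the replicate block, and 5 without replicate 1 of both lines, a setting chosen after seeing the data that uses 4 libraries. With single libraries left out it ranged from 0 to 10, and was 0 without WT replicate 2 or 3 and without POLDIP2 KO replicate 2 or 3, where 693 to 903 genes still had an unadjusted limma p value under 0.05. The cause was not tested.

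Of 151 values of the log2 fold change of the risk genes under alternatives, 141 kept their direction. The 10 that turned all came from leaving out 1 library. With single libraries left out, the log2 fold change ranged from 0.20 to 0.47 for HTRA1 and from 0.18 to 0.42 for ADAMTS9, which did not turn, and from -0.19 to 0.037 for PLEKHA1, -0.21 to 0.42 for RAD51B, -0.092 to 0.025 for B3GLCT, -0.40 to 0.069 for TRPM3, -0.0095 to 0.064 for ARHGAP21 and -0.30 to 0.091 for CNN2. In these fits PLEKHA1 turned without WT replicate 2 and POLDIP2 KO replicate 2, RAD51B without WT replicate 3 and POLDIP2 KO replicate 2, B3GLCT and CNN2 without WT replicate 1 and POLDIP2 KO replicate 2, TRPM3 without WT replicate 1, and ARHGAP21 without WT replicate 2. Without replicate 1 of both lines, RAD51B was at 0.55, against 0.15 with all libraries. TRPM3 could not be tested with a mean of at least 50. ARMS2 and SLC16A8 were under the limit that a count of 0 allows, and TRPM3 rests on 24 to 52 reads per library.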

Other observations

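Of the 17 RPE markers, 13 were tested and none passed the limma thresholds. Without overlap of the lines, 0 lay above WT and 2 below it, against 5.46% and 5.44% of all tested genes. At an unadjusted limma p value under 0.05, 0 were higher and 1 was lower, against 3.0% and 3.47% of all tested genes. This was LRAT, which makes the retinyl esters of the visual cycle, with 106, 75.2 and 29.2 normalised counts across WT replicates 1, 2 and 3, against 22.1, 24.4 and 28.8 in the POLDIP2 KO line, which gives a log2 fold change of -1.27 with an interval from -2.46 to -0.08 (limma adjusted p = 0.731). WT replicate 3 was nearly level with POLDIP2 KO. SERPINF1, which codes for the antiangiogenic factor PEDF, also lay lower without overlap, with 103, 168 and 108 in WT, against 101, 74.1 and 49.6 in the POLDIP2 KO line (log2 fold change -0.77, limma adjusted p = 0.822). THBS2, named after its values were seen, had uneven reads in both lines, at 0, 0 and 30 across WT replicates 1, 2 and 3, against 150, 8 and 0 in the POLDIP2 KO line.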
